A study of Mus musculus with 62 samples.

Results

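The data described here are the change in the liver transcriptome between 6 and 8 weeks after injection of cachectic melanoma cells (CAC), taken beyond the change over the same interval in mock-injected mice (Con). For each gene the value is CAC at 8 weeks minus CAC at 6 weeks, less Con at 8 weeks minus Con at 6 weeks, on the log2(TPM + 1) scale, where TPM is the share of a library's transcripts, scaled by transcript length so that every library sums to 1e+06. It is called the step below. It uses 22 of the 62 liver libraries of the study, 5 of CAC at 6 weeks, 7 of CAC at 8 weeks and 5 of Con at each time, and 12160 of the 47643 gene symbols in the table, those reaching 1 TPM in 5 or more of the libraries. All mice were female and 2 months old. The labels give the strain as C57BL6/J and the design text as NCI Ath/nude, and the name and species of the melanoma cells are not stated. A further arm received non-cachectic melanoma cells (NCAC), with 5 libraries at each of these times. The libraries are labelled as separate replicates of a group, each taken as 1 animal.

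Cachexia is the loss of muscle and fat that accompanies some tumours. The liver responds to inflammatory cytokines, of which interleukin-6 acting through STAT3 is the best known, by making acute phase proteins such as serum amyloid A. It also answers to glucocorticoids, to fasting signals acting through PPARA, to growth hormone acting through STAT5, and to a daily clock. Each of these programs has well-known target genes in hepatocytes, which were grouped into lists.

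Several of the 22 libraries stood apart from their groups. In CAC at 8 weeks, replicate 3 had 8.49 TPM of Hamp, which encodes the iron hormone hepcidin, against 1005 to 4143 TPM in the other 6, and 3365 TPM of the serum amyloid gene Saa1 against 21969 to 44151. Its summed erythroid markers reached 16096 TPM, against 58.5 to 2419 TPM in the other 6. Of the 1862 genes that differed between CAC and Con at 6 weeks, this library was the one nearest to the Con 8-week mean at 55.9%, where 14.3% would be an even share among 7 libraries. In these respects it stood apart from the other libraries of its label. Its Saa1 and erythroid levels were also above those of the Con libraries, which reached 1488 TPM and 4733 TPM. In other measures too it lay outside the Con libraries of both times. Its summed acute phase transcripts were 79179 TPM, against 24041 to 38340 TPM in Con. Its summed adipocyte markers were 261 TPM, against 821 to 1694 TPM in Con. Whether the label is right, or the mouse had little disease, was not tested, and every CAC 8-week value with all libraries includes it. In Con at 8 weeks, replicate 2 carried 7980 TPM of summed exocrine pancreas markers and 2829 TPM of B cell and plasma cell markers, and was the highest or lowest of its 5 libraries for 70.3% of genes, against an even share of 40%. Transcripts of pancreas or skeletal muscle (at least 100 TPM of Ctrb1 or 10 TPM of Acta1) marked 5 of the 22 libraries, 1 of CAC at 6 weeks and 4 of Con. Summed hepatocyte markers ranged from 129472 to 182243 TPM over the 22 libraries.

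No gene was called in the step. In limma, 0 of 12160 genes passed an adjusted p of 0.05, a called share of 0%, while 2189 had an unadjusted p under 0.05. Of these, 231 were on the higher side (1.90% of genes tested) and 1958 on the lower side (16.1%). The median over all genes was -0.10, made of -0.08 in CAC and 0.03 in Con. After median-of-ratios scaling, which moved the median by 0.10 to 0.01, 1129 genes (9.28%) lay on the higher side and 931 (7.66%) on the lower, and 0 were called. The lean towards lower values was present on the TPM scale and absent after that scaling. Because that scaling brings the libraries to a common median level, it removes a shared lean by construction. With the 20 highest genes removed and the rest rescaled, the lean remained. The median was then -0.12, with 152 genes on the higher side and 2178 on the lower at an unadjusted p under 0.05 in limma. The cause of the lean was not tested. Summed acute phase transcripts made up 79179 to 234880 TPM in CAC at 8 weeks and 100301 to 185888 at 6 weeks, against 24041 to 38340 in the Con libraries. The median standard error of the step was 0.20, and for 95% of genes the 95% interval extended less than 1 log2 unit to each side.

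The smallest adjusted p belonged to Osgin1, an oxidative stress-induced growth inhibitor (GRCm38 chromosome 8, 119434124 to 119446256, protein coding). Its level was 127, 180, 200, 248 and 254 TPM in CAC at 6 weeks, and in CAC at 8 weeks ranged from 19.6 through a median of 57.6 to 157 TPM. In Con it was 61.8, 129, 143, 90.8 and 175 TPM at 6 weeks and 214, 513, 136, 234 and 160 TPM at 8 weeks. In CAC, 1 of the 7 libraries at 8 weeks lay inside the 6-week range and the other 6 below it, while the Con groups overlapped. The step was -2.74 (SE 0.54, 95% interval -3.83 to -1.66, adjusted p 0.065). Its adjusted p was 0.370 without Con 8-week replicate 2, the library at 513 TPM, and 0.0133 without CAC 8-week replicate 3.

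**Figure D1:**
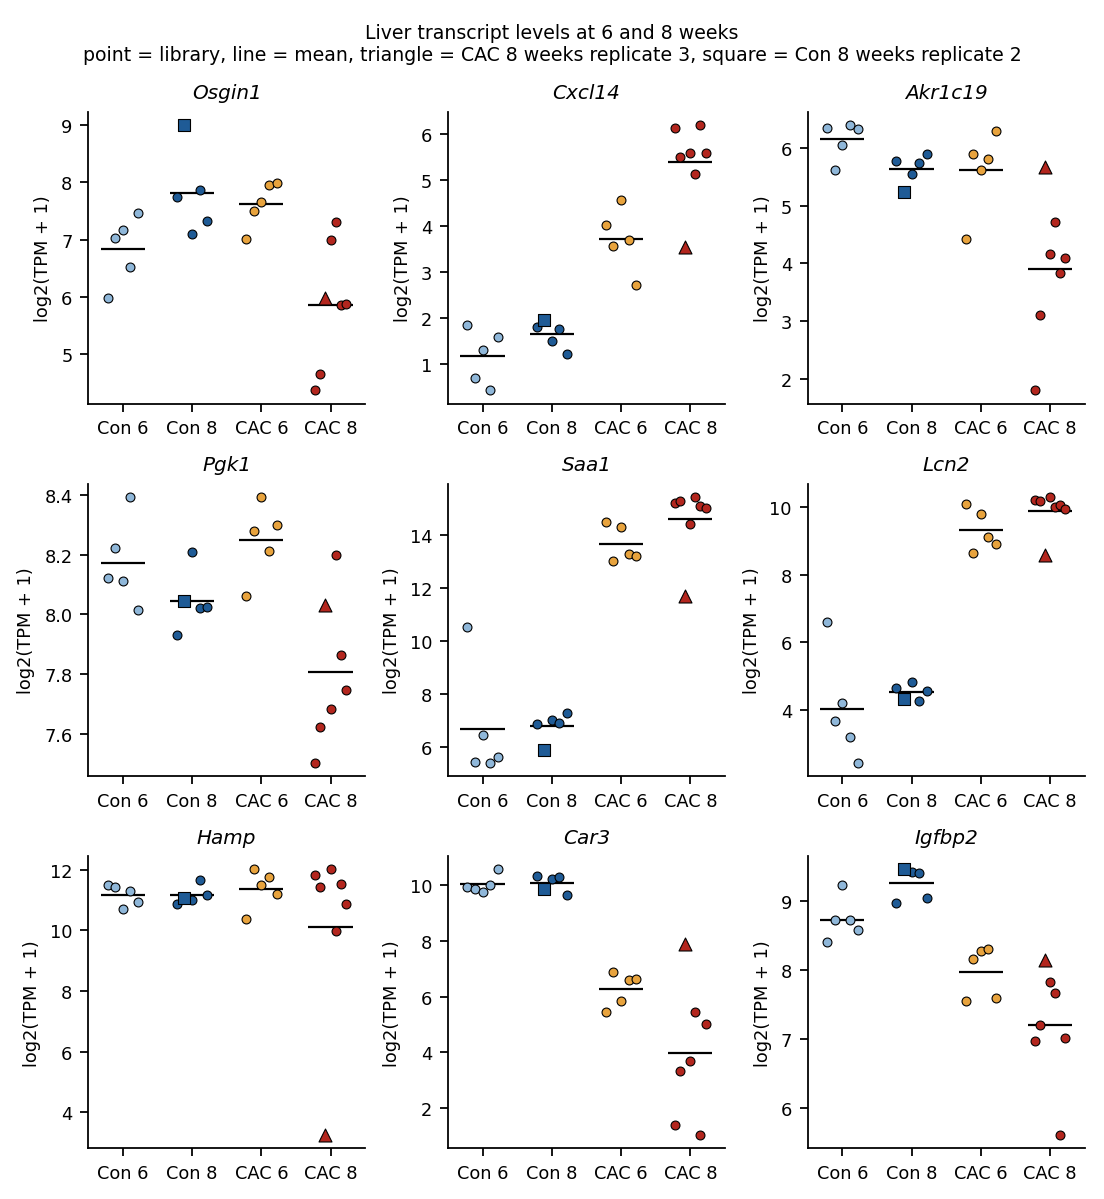
Level of 9 genes, as log2(TPM + 1), in each library of Con and CAC at 6 and 8 weeks; points are libraries, lines are group means, the triangle is CAC 8 weeks replicate 3 and the square is Con 8 weeks replicate 2. The triangle lies outside the other CAC 8-week libraries for Cxcl14, Saa1, Lcn2, Hamp, Akr1c19, Car3 and Igfbp2.

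The CAC arm taken alone had 5 called genes between 6 and 8 weeks (0.0411% of genes tested), 1 higher and 4 lower. The number of calls varied with the library left out: none was left without CAC 6-week replicate 4 or 5, or CAC 8-week replicate 1, 2 or 7. There was 1 without CAC 6-week replicate 2 or 3, 3 without CAC 8-week replicate 4 or 6, 36 without CAC 6-week replicate 1, 18 without CAC 8-week replicate 5 and 346 without CAC 8-week replicate 3. None was left when only the 4 groups of the step were fitted. Cxcl14, a chemokine gene (chromosome 13, 56288643 to 56296551), was at 15.2, 10.8, 22.7, 11.9 and 5.58 TPM at 6 weeks and at 10.7, 47.0 and 72.4 TPM (lowest, median, highest) at 8 weeks. Outside replicate 3, which held the lowest value, the 8-week range began at 33.8 TPM and the groups did not overlap. Cxcl14 rose by 1.67 (SE 0.33, adjusted p 0.0202), and its Con levels were 0.348 to 2.62 TPM at 6 weeks and 1.33 to 2.91 TPM at 8 weeks. Akr1c19, an aldo-keto reductase gene (chromosome 13, 4228700 to 4252843), was at 20.4, 58.1, 48.2, 55.1 and 77.8 TPM at 6 weeks and at 2.48, 16 and 49.9 TPM (lowest, median, highest) at 8 weeks. The highest was again replicate 3, and the others reached 25.3 TPM. Akr1c19 fell by 1.70 on the log2 scale (SE 0.33, adjusted p 0.0193).

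Pgk1, the glycolytic phosphoglycerate kinase, fell by 0.44 (SE 0.09, adjusted p 0.0193), from 266, 309, 335, 296 and 314 TPM at 6 weeks to a median of 214 TPM (181 to 293 TPM) at 8 weeks. A single 8-week library lay inside the 6-week range. Btg3, an antiproliferative gene, was called lower at low levels: 6 of its 7 values at 8 weeks are listed at 0 and the other is 0.449 TPM, against 4.73, 0, 2.03, 7.61 and 3.64 TPM at 6 weeks. Osgin1 fell by 1.76 within CAC (SE 0.37, adjusted p 0.0344). Beyond the Con step none of the other 4 was called: Cxcl14 stood at 1.20 (SE 0.49, adjusted p 0.195), Akr1c19 at -1.19 (SE 0.48, adjusted p 0.188), Pgk1 at -0.32 (SE 0.13, adjusted p 0.189) and Btg3 at -1.75 (SE 0.52, adjusted p 0.110).

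The 250 bases before the RefSeq transcription start of Cxcl14, Akr1c19 and Osgin1 are shown because Cxcl14 was the only called increase in CAC, Akr1c19 had the smallest p there and Osgin1 the smallest p in the step; they were chosen after their values were seen. The build is GRCm38.p6, at chr13:56296552-56296801 on the minus strand for Cxcl14, chr13:4233490-4233739 on the plus strand for Akr1c19 and chr8:119436897-119437146 on the plus strand for Osgin1. Both strands were searched for TTCNNNGAA, the palindrome bound by STAT factors, and TGACNNNGC, the core of the antioxidant response element; capitals mark matches.
Cxcl14: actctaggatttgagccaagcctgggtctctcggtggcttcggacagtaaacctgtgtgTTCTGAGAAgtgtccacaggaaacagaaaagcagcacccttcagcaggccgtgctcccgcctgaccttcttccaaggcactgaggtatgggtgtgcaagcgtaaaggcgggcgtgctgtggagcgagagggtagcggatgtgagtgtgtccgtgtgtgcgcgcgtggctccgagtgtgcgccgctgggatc
Akr1c19: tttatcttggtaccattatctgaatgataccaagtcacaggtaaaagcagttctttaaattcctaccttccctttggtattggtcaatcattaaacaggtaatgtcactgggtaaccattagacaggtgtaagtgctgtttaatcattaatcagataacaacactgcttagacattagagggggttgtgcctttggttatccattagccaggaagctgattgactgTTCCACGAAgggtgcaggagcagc
Osgin1: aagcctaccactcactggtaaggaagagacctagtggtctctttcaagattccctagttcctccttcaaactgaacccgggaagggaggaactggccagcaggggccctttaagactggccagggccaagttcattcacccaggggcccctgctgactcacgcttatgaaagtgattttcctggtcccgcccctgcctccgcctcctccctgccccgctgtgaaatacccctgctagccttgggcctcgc
Cxcl14 held 1 STAT-type palindrome, beginning at position -191 relative to the start, and Akr1c19 held 1, beginning at -24. Osgin1 held neither motif, and no match says only that these letters are not in this window. Of 32851 mouse promoters of the same 250 bases, 7.02% held the palindrome and 10.2% the antioxidant core. A match is a description of sequence and not of binding. The Akr1c19 and Osgin1 windows lie inside the GENCODE spans of these genes, which begin at 4228700 and 119434124. Positions are therefore relative to the RefSeq start only.

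Leaving out single libraries changed the number of called genes. Without CAC 8-week replicate 3, 771 genes were called, 17 higher (0.140%) and 754 lower (6.20%). All 771 had the same sign with every library included, and 759 of them then had an unadjusted p under 0.05. Without Con 8-week replicate 5, 388 were called, 15 higher (0.123%) and 373 lower (3.07%), of which 348 were among the 771. Of the 22 libraries, 14 gave 0 called genes when left out and 20 gave 5 or fewer. Con 8-week replicate 5 had 22 TPM of the clock gene Per1 against 0.805 to 9.52 TPM in the other 4, and 13.7 TPM of Nr1d1, a clock repressor, against 66.0 to 78.9 TPM. With clock gene components as covariates, 350 genes were called (23 higher, 327 lower). These components were taken after group means were removed, so they cannot adjust for clock differences between groups. They changed the spread only, and the median step over all genes stayed at -0.10. When the libraries marked by pancreas or muscle were left out together with CAC 8-week replicate 3, 149 were called (6 higher, 143 lower). The part of these libraries' make-up in the counts was not tested.

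**Figure D2:**
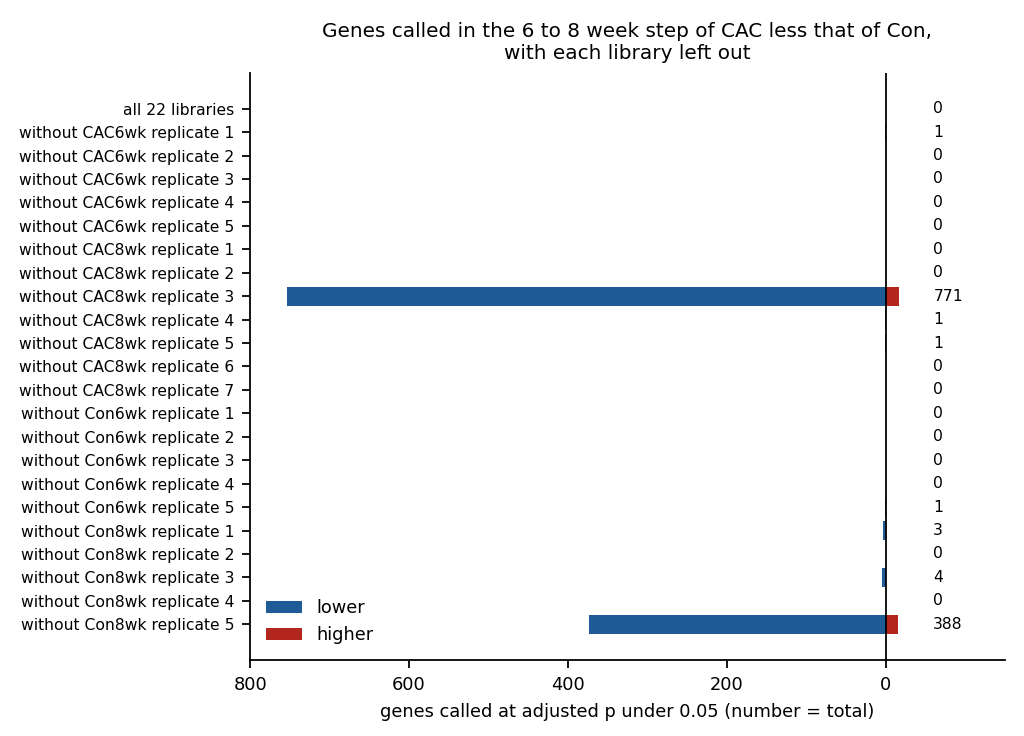
Number of genes called in the step with all 22 libraries and with each left out in turn; bars to the left are genes lower and bars to the right genes higher in the step, and the number is their total. CAC 8-week replicate 3 (771) and Con 8-week replicate 5 (388) are the only libraries whose omission gives more than 5 called genes.

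The genes named from the 771 are the largest increases and decreases, a choice applied to this fit after its values were seen, and each value is the CAC step less the Con step. The largest increase was that of B3galt1, a galactosyltransferase, at 1.85 (adjusted p 0.0162), made of 1.32 in CAC and -0.53 in Con. B3galt1 was at 47.0, 16.1, 10.2, 52.6 and 22.7 TPM in CAC at 6 weeks and at 32.9 to 118 TPM in the 6 retained libraries at 8 weeks, against 9.47 to 15 TPM and then 4.54 to 10.7 TPM in Con. Igdcc4, an immunoglobulin-superfamily membrane protein, followed at 1.78 (adjusted p 0.0133), made of 1.66 in CAC and -0.12 in Con. Igdcc4 went from at most 4.03 TPM to 2.52 to 18 TPM in CAC, with Con at or below 0.904 TPM. The largest decreases were those of Igkv3-7 (-3.49), Car3 (-3.01), Ighv6-3 (-2.89), Osgin1 (-2.76), H2-Eb1 (-2.72), Iglv2 (-2.60) and the glutathione transferase gene Gstm3 (-2.34). The arms contributed unequally: for Car3 the CAC step was -2.96 and the Con step 0.05, for Osgin1 -1.78 and 0.98, for Gstm3 -1.30 and 1.04, and for Igkv3-7 -0.86 and 2.63. The immunoglobulin genes and Gstm3 have near-identical relatives whose reads the counting could have split.

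Acute phase genes did not pass the test in the step, while most of them were already higher in CAC at 6 weeks. Of 34 measured acute phase genes, 30 were called higher and 1 lower than Con at 6 weeks, and again 30 and 1 at 8 weeks, with medians of 1.90 and 1.85. The share of all genes called was 5.00% higher and 10.3% lower at 6 weeks, and 5.87% higher and 35.3% lower at 8 weeks. In the step their median was 0.12, and 3 of 34 had an unadjusted p under 0.05, all on the higher side: Saa4 at 0.81 (SE 0.27), the metalloreductase Steap4 at 0.76 (SE 0.35) and the metallothionein Mt2 at 1.75 (SE 0.85). Saa4, the constitutive serum amyloid, was at 873, 546, 760, 589 and 736 TPM in CAC at 6 weeks and at 934, 1049 and 1346 TPM (lowest, median, highest) at 8 weeks, while Con stayed between 230 and 352 TPM in all 10 libraries. The CAC groups did not overlap for Saa4, but its adjusted p was 0.129.

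Saa1, the major inducible serum amyloid, was at 22924, 8332, 19964, 10072 and 9568 TPM in CAC at 6 weeks and reached a median of 35378 TPM at 8 weeks. The step of Saa1 was 0.82 (SE 1.16, 95% interval -1.52 to 3.15), an interval that leaves room for a large difference in either direction. Con at 6 weeks held 1 library at 1488 TPM of Saa1 and the others at 41.7 to 87.9 TPM. Lcn2, the iron-siderophore binding lipocalin, gave 0.09 (SE 0.78) and Orm2, an orosomucoid, 0.80 (SE 0.56). Orm2 was at 1865, 1072, 1413, 1533 and 1112 TPM at 6 weeks and at 1514, 3069 and 4382 TPM (lowest, median, highest) at 8 weeks in CAC. It had the smallest exact two-sided permutation p of the 26 sentinel genes for CAC at 8 against 6 weeks, 0.0177, with an adjusted p of 0.460 over the 26; 792 relabellings allow a smallest p of 0.00126.

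Of the 23 IL-6 and STAT3 response genes, 13 were called higher at 6 weeks and 14 at 8 weeks, against 5.00% and 5.87% of all genes, and 1 was called lower at each time. Their median step was -0.15, beside -0.10 over all genes, with only Junb at an unadjusted p under 0.05 (-1.42, SE 0.54). Stat3 itself had a step of -0.05 and the feedback inhibitor Socs3 one of -0.24.

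Glucocorticoid response genes had a median step of 0.69, made of 0.17 in CAC and -0.52 in Con. Of 27 measured, 6 had an unadjusted p under 0.05, all on the higher side, against 1.90% of all genes. They include Tat, tyrosine aminotransferase (1.28, SE 0.44), Tsc22d3, the glucocorticoid-induced leucine zipper (1.15, SE 0.50), and the phosphatase gene Dusp1 (1.16, SE 0.54); none was called. Tat was at 1796, 1604, 1944, 1299 and 1428 TPM in CAC at 6 weeks and 1277, 1930 and 3643 TPM (lowest, median, highest) at 8 weeks, groups that overlapped. In Con it was at 1646, 1111, 1490, 2154 and 894 TPM at 6 weeks and at 548, 361, 761, 870 and 1541 TPM at 8 weeks, the last value being replicate 5. Against Con, 9 of the 27 were called higher at 6 weeks and 18 at 8 weeks, beside 5.00% and 5.87% of all genes.

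Clock genes were read beside these because several libraries differed in them. Per1, which is induced by glucocorticoids as well as by the clock, was at 18.1, 8.85, 16, 23.1 and 19.6 TPM in Con at 6 weeks and at 4.48, 0.805, 9.52, 6.15 and 22 TPM at 8 weeks. In CAC it was at 12.5 to 15.2 TPM at 6 weeks and 10.2 to 22.8 TPM at 8 weeks. Over 20 clock genes the median step was 0.38, with -0.03 in CAC and -0.45 in Con, and 1 member lay on each side at an unadjusted p under 0.05 (Per1 and Npas2). The clock median was -0.06 without the libraries marked by pancreas or muscle, and that of the glucocorticoid response genes was 0.56. Over all genes the median in that fit was -0.18. The hour of tissue collection is not given in the labels.

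**Figure D3:**
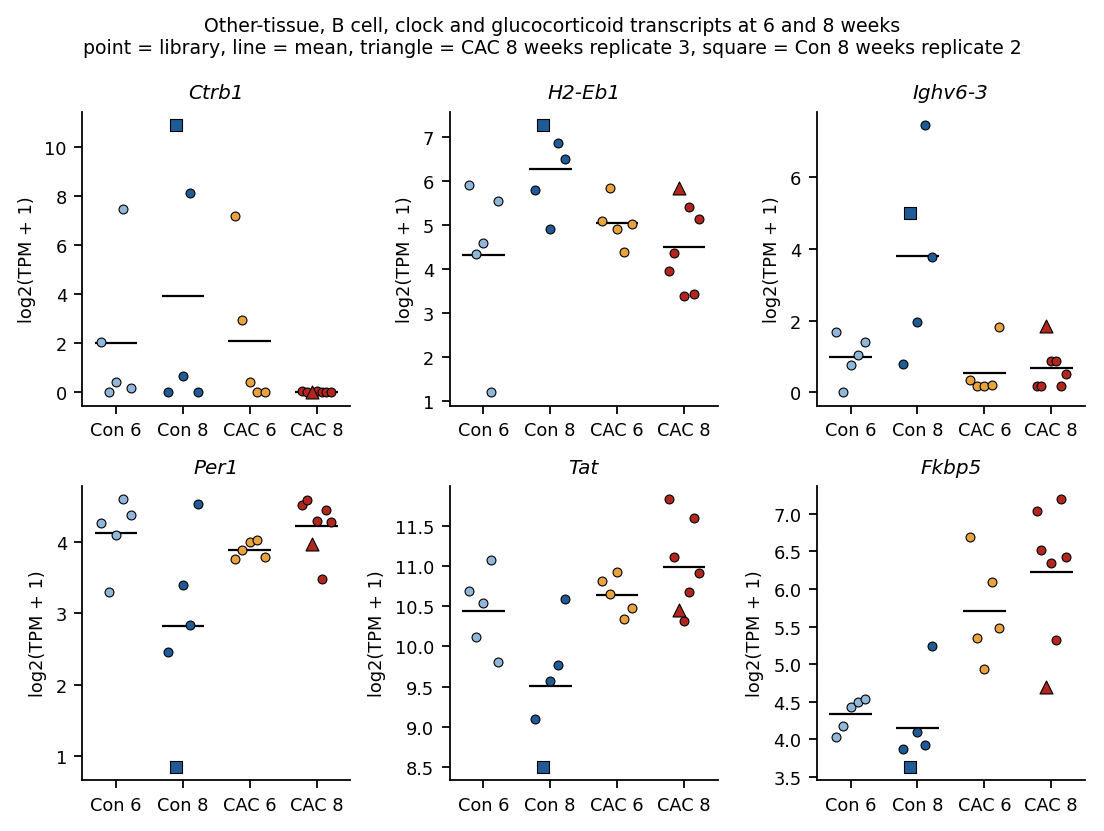
Level of 6 genes, as log2(TPM + 1), in each library of Con and CAC at 6 and 8 weeks; symbols are as in the plot of the 9 genes. The square (Con 8 weeks replicate 2) is the highest point for Ctrb1 and H2-Eb1 and the lowest for Per1, Tat and Fkbp5.

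The nuclear genes of oxidative phosphorylation had values below 0 in the step almost throughout. Of 74 measured, 73 had a step below 0 and 55 an unadjusted p under 0.05 on the lower side, against 16.1% of all genes, and the median was -0.43 against -0.10. Both arms contributed, with a median of -0.26 in CAC and 0.17 in Con. Without the libraries marked by pancreas or muscle the step median was -0.40, beside -0.18 over all genes. After median-of-ratios scaling the median was -0.31 and 20 of 74 remained at an unadjusted p under 0.05, against 7.66% of all genes. Cox6a1, a subunit of complex IV, was at 380, 596, 531, 428 and 479 TPM in CAC at 6 weeks and 311, 362 and 531 TPM (lowest, median, highest) at 8 weeks. In Con it was at 410, 452, 435, 466 and 423 TPM and then 491, 789, 625, 545 and 463 TPM, with a step of -0.72 (SE 0.18, adjusted p 0.107). Without CAC 8-week replicate 3, 43 of the 74 were called lower, against 6.20% of all genes. The 13 transcripts encoded in mitochondrial DNA had a median of 0.33, with 11 above 0; their median was -0.10 in CAC and -0.35 in Con.

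Proteasome subunits gave a similar picture. All 34 had a step below 0, and 23 of them an unadjusted p under 0.05, against 16.1% of all genes, with a median of -0.39. After median-of-ratios scaling the median was -0.26 and 11 of 34 had such a p, against 7.66%. Psmb3, a beta subunit of the catalytic core, was at 40.5, 57.9, 47.3, 46.5 and 46.4 TPM in CAC at 6 weeks, and at 32.5, 35.5 and 46.9 TPM (lowest, median, highest) at 8 weeks. In Con it was at 45.0, 33.1, 37.2, 48.5 and 42.2 TPM, then 53.7, 81.8, 51.7, 61.0 and 39.5 TPM. The step of Psmb3 was -0.82 (SE 0.19, adjusted p 0.107) and that of Psmb5, another catalytic-core subunit, -0.66 (SE 0.15). Without CAC 8-week replicate 3, 17 of the 34 were called lower, against 6.20% of all genes. Ribosomal protein genes had a median of -0.43, with 34 of 69 at an unadjusted p under 0.05 on the lower side on the TPM scale. After median-of-ratios scaling 3 of 69 had such a p, a smaller share than the 7.66% of all genes, and without the libraries marked by pancreas or muscle their median was -0.19, beside -0.18 over all genes. Replicate 3 of CAC at 8 weeks had the highest mean log2 level of its group in all 3 lists, 7.28 for oxidative phosphorylation against 6.60 to 6.90 in the other 6, and Con 8-week replicate 2 the highest of its group.

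Lists of metabolic enzymes differed, and no member of any list was called in the step. After median-of-ratios scaling the median was -0.17 for conjugation enzymes and NRF2 targets, -0.20 for glycolysis, glycogen and fructose, -0.12 for fatty acid oxidation and PPARA targets and -0.13 for pericentral and Wnt targets. It was 0.02 for drug-metabolising P450 genes, 0.05 for gluconeogenesis and insulin signalling and 0.10 for amino acid catabolism and the urea cycle, which had medians of -0.12, -0.08 and -0.03 on the TPM scale. On the TPM scale 16.1% of all genes had an unadjusted p under 0.05 on the lower side. Of 45 conjugation enzymes and NRF2 targets 12 did, led by Gstp1 (-0.90, SE 0.25) and Gstm3 (-1.97, SE 0.60), and 9 were called lower without CAC 8-week replicate 3, against 6.20% of all genes. Of 27 glycolysis, glycogen and fructose genes 8 did, among them the isomerase Gpi1 (-0.54, SE 0.16) and the transketolase Tkt (-0.76, SE 0.23). Of 46 genes of fatty acid oxidation and PPARA targets 7 did, 15.2%, which is below the share of all genes. Of those 46, 32 were called lower than Con at 6 weeks and 37 at 8 weeks, against 10.3% and 35.3% of all genes. Of 22 pericentral and Wnt targets 7 did. These include Notum, a Wnt-inactivating enzyme, at 14.3, 22.4, 17.0, 18.9 and 14.1 TPM in CAC at 6 weeks and 5.68 to 18.8 TPM at 8 weeks, and in Con at 17.8 to 34.1 and then 27.8 to 38.5 TPM (step -1.04, SE 0.26, adjusted p 0.107). Sp5, a Wnt-induced transcription factor (-0.57, SE 0.16), and the ligand gene Wnt2 (-0.79, SE 0.24) stood beside it.

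Car3, carbonic anhydrase 3, had the most negative step of the sentinel genes. It was at 42.3, 117, 56.2, 95.8 and 97.5 TPM in CAC at 6 weeks and at 1.03, 12 and 237 TPM (lowest, median, highest) at 8 weeks, the highest being replicate 3, while Con lay between 798 and 1521 TPM throughout. The step was -2.35 (SE 0.84, 95% interval -4.04 to -0.66, adjusted p 0.144), and -3.01 without that library (adjusted p 0.0147). Car3 is also a marker of adipocytes, and all 10 measured adipocyte markers had a step below 0, with a median of -1.63. An unadjusted p under 0.05 was reached by 3, against 16.1% of all genes on the lower side. They were Car3, the hormone gene Retn (-2.01, SE 0.97) and the complement protease gene Cfd (-4.29, SE 2.11). Without the libraries marked by pancreas or muscle the median of these markers was -0.75, beside -0.18 over all genes. Adipoq, which encodes adiponectin, gave -2.30 (SE 1.26), with medians of 1.60 TPM in CAC and 0.480 TPM in Con at 6 weeks and 0.0739 and 3.81 TPM at 8 weeks. In Con at 8 weeks Adipoq was at 23.7 and 20.4 TPM in replicates 2 and 4, and at 0.0380, 3.81 and 0.150 TPM in the others. Summed adipocyte markers, Car3 included, were 73.2 to 449 TPM in CAC at 6 weeks, 26.5 to 261 TPM in CAC at 8 weeks, 897 to 1694 TPM in Con at 6 weeks and 821 to 1551 TPM in Con at 8 weeks, and their part in the Car3 step was not tested. Igfbp2, an IGF-binding protein made by the liver, gave -1.30 (SE 0.39, adjusted p 0.112), and -1.46 without replicate 3 (adjusted p 0.0214). Fgf21, a fasting hormone, gave -1.17 (SE 0.41, adjusted p 0.139) at levels of 0.163 to 1.98 TPM in CAC and up to 7.56 TPM in Con. Mup3, a growth hormone-dependent urinary protein gene with many near-identical copies, gave -1.74 (SE 0.85, adjusted p 0.267). Gdf15, a stress cytokine, gave -0.77 (SE 0.35, adjusted p 0.240).

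**Figure D4:**
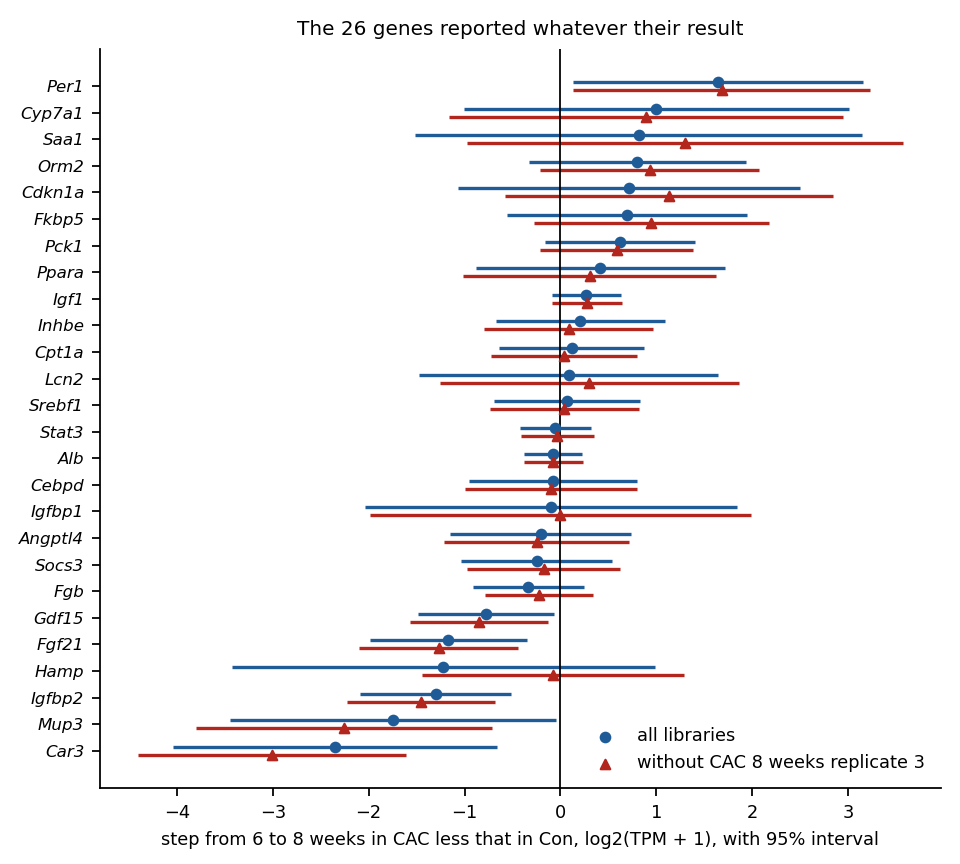
Step in CAC less Con, in log2(TPM + 1), with its 95% interval for 26 genes reported whatever their result; circles use all libraries and triangles leave out CAC 8-week replicate 3. None of the 26 is called with all libraries, and Car3 and Hamp move most between the fits.

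Markers of other cell types were read in the same fit. All 12 measured B cell and plasma cell markers had a step below 0. Of these 6 had an unadjusted p under 0.05, against 16.1% of all genes on the lower side. The smallest p belonged to H2-Eb1, Igha, H2-Ab1 and Cd74. H2-Eb1, H2-Ab1 and Cd74 serve class II antigen presentation, which is not particular to B cells. The median of the 12 markers was -1.37, made of -0.34 in CAC and 0.83 in Con. Without the 12 libraries of the study marked by pancreas or muscle the median step of these markers was -0.34, beside -0.18 over all genes. H2-Eb1, a class II antigen-presentation gene, was at 59.9, 19.5, 23.3, 1.29 and 46.3 TPM in Con at 6 weeks and at 54.5, 155, 29.1, 116 and 90.1 TPM at 8 weeks, and at 20 to 57.1 TPM and then 9.50 to 57.1 TPM in CAC (step -2.49, SE 0.79, adjusted p 0.118). Of the 8 genes called between 6 and 8 weeks in Con (0.0658%), all higher, 5 are immunoglobulin variable genes, among them Ighv6-3, which was at 0 to 2.21 TPM at 6 weeks and 0.737, 30.9, 2.87, 172 and 12.6 TPM at 8 weeks. The other 3 are Sft2d1, Crlf2 and Ppp2r3d. In Con, 0 genes were called when Con 8-week replicate 2 or 4, or Con 6-week replicate 2 or 3, was left out.

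The summed level of exocrine pancreas transcripts reached its highest value in Con at 8 weeks. It was 18.4 to 7980 TPM there, 14.5 to 857 TPM in Con at 6 weeks, 8.07 to 519 TPM in CAC at 6 weeks and 4.03 to 14.9 TPM in CAC at 8 weeks. All 18 markers had a step below 0, with Cela1, an elastase, at -2.21 (SE 0.88). Their part in the step of other genes was not tested. Without the libraries marked by pancreas or muscle the median over all genes was -0.18 and 0 genes were called. The step had 0 calls with all libraries as well, so that count cannot inform on their part. Of 16 Kupffer cell and macrophage markers 14 had a step below 0, with a median of -0.53 beside -0.10 over all genes. On the lower side 4 had an unadjusted p under 0.05, against 16.1% of all genes, and 2 after median-of-ratios scaling, against 7.66%. They were led by the scavenger receptor gene Marco (-1.58, SE 0.63). In bulk tissue, fewer cells of a type and less RNA per cell cannot be told apart.

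The 2 time points can be set side by side, bearing in mind that both differences enter the step. CAC differed from Con in 1862 genes at 6 weeks (608 higher, 1254 lower) and in 5005 at 8 weeks (714 higher, 4291 lower). After median-of-ratios scaling the split was 1027 (8.45%) and 691 (5.68%) at 6 weeks, and 1613 (13.3%) and 1600 (13.2%) at 8 weeks. A gene called at 8 weeks and not at 6 weeks is not thereby shown to have changed between them: that is the step, in which 0 genes were called. For oxidative phosphorylation 10 of 74 genes were called lower at 6 weeks and 70 at 8 weeks (3 and 18 after median-of-ratios scaling), and for the proteasome 3 and 33 of 34 (1 and 14). Of all genes, 10.3% were called lower at 6 weeks and 35.3% at 8 weeks (5.68% and 13.2% after that scaling).

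**Figure D5:**
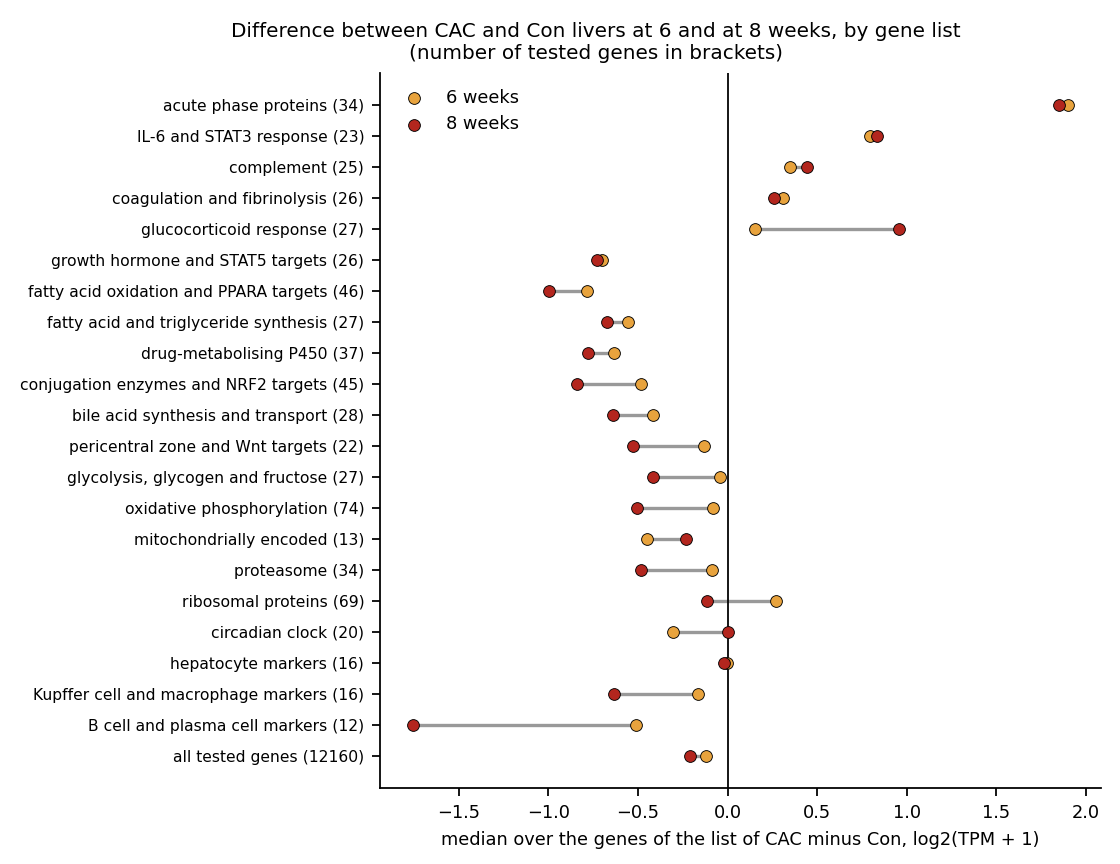
Median over the tested genes of each list of the difference between CAC and Con, in log2(TPM + 1), at 6 weeks and at 8 weeks; the grey line joins the values of a list. Acute phase genes lie at 1.90 and 1.85, glucocorticoid response genes at 0.15 and 0.96, and all tested genes at -0.12 and -0.21.

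Measured against the other tumour arm, the CAC step had 0 called genes (0%), and a smallest adjusted p of 0.067. On the TPM scale 2684 genes had an unadjusted p under 0.05, 36 higher and 2648 lower, and after median-of-ratios scaling 686 did, 324 higher and 362 lower. Akr1c19 (-2.10, SE 0.48) and Pgk1 (-0.60, SE 0.13) were among the genes with that adjusted p, and Cxcl14 stood at 1.46 (SE 0.49, adjusted p 0.110). The median over all genes was -0.23 here, beside -0.10 with Con as the reference. Against NCAC, oxidative phosphorylation had a median of -0.34, B cell markers one of -0.27 and glucocorticoid response genes one of 0.01. With Con as the reference these medians were -0.43, -1.37 and 0.69. The step was also compared with the one before it, from 4 to 6 weeks: 0 genes were called (0%), 852 had an unadjusted p under 0.05, and the smallest adjusted p was 0.708.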

How the data were processed

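Per the labels' protocols, Trizol-extracted liver RNA went into TruSeq stranded mRNA libraries read on a NovaSeq. The authors deposited 1 table of TPM for 47643 symbols in 62 libraries, each summing to 1e+06; the build was mm10, per the submitters' processing notes. The sources used here name no aligner or quantifier. Read depth is unknown, so no count test or counting interval was used. Columns were matched to groups by name, with 0 unmapped.

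Genes reaching 1 TPM in 5 or more libraries entered a limma fit (version 3.58.1, R 4.3.3) of log2(TPM + 1) with 1 mean per group (12 groups, 62 libraries) and trended empirical Bayes variances. Tests were two-sided, adjusted by Benjamini-Hochberg over the 12160 genes, and called under 0.05. Values are differences on the log2(TPM + 1) scale, which understates the change of low genes. P-values measure the spread between these libraries. The fit was tested on simulated data. Lists (48) are described by counts and medians, without a set test, and 26 sentinel genes also had an exact permutation test. Named genes were to be the 12 largest called changes in each direction with a group mean of at least 5 TPM and a stable sign, the 2 to 4 members of each list of lowest p, and all sentinel genes; the first part named 0. The genes, lists and tests were chosen with earlier results of these data known. Same-numbered libraries were not treated as pairs. Gene positions are from GENCODE vM21 (GRCm38) and promoters from RefSeq. Figures were drawn with matplotlib.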

Additional observations from a re-analysis of the deposited data

Results flagged for a closer look

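Among 124 groups of values of the reported genes, 16 held 1 library far from the rest by Dixon's criterion; chance alone marks about 1 in 20. CAC 8-week replicate 3 accounted for 4: it was lowest for Saa1 (3365 TPM, others 21969 to 44151), Lcn2 (384 TPM, others 992 to 1255), Hamp (8.49 TPM, others 1005 to 4143) and Cxcl14 (10.7 TPM, others 33.8 to 72.4). CAC 8-week replicate 5 was lowest for Cpt1a, the gate of mitochondrial fatty acid import (88.9 TPM, others 165 to 228), and highest for Btg3 (0.449 TPM, others listed at 0).

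At 6 weeks, CAC replicate 5 was highest for Igf1 (205 TPM, others 119 to 137), and CAC replicate 3 was lowest for Cyp7a1, the rate-limiting enzyme of bile acid synthesis (9.17 TPM, others 82.1 to 92.0), and for Angptl4 (23.9 TPM, others 54.5 to 68.6). In Con at 6 weeks, replicate 1 was highest for Saa1 (1488 TPM, others 41.7 to 87.9) and Btg3 (2.45 TPM, others 0 to 0.197), replicate 2 for Angptl4 (78.6 TPM, others 39.4 to 44.7) and replicate 5 for Car3 (1521 TPM, others 875 to 1019). In Con at 8 weeks, replicate 2 was lowest for Saa1 (58.1 TPM, others 118 to 157) and Stat3 (17.0 TPM, others 22.7 to 25.5), and replicate 5 was highest for Fkbp5, a glucocorticoid-induced chaperone (36.9 TPM, others 11.4 to 16.2).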

How the results depend on the processing

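Counts of called genes are given in the order of the settings. The step in CAC less Con had 0 calls, 1 with a mean of at least 5 TPM, 350 with clock covariates, 149 without CAC 8-week replicate 3 and the other-tissue libraries together (added after seeing the data), and 0 to 771 with 1 library left out. The 5 calls in CAC alone became 2 at a pseudocount of 0.1, 22 with no filter, 11 with quantile normalization, 41 with the 20 highest genes removed, 0 with only the 4 groups of the step, 42 without pancreatic libraries, 20 without other-tissue libraries, 989 with the added setting, and 0 to 346 with 1 library left out. The 8 calls in Con alone became 0 at that pseudocount, 38 with no filter, 0 with a mean of at least 5 TPM, 5 with quantile normalization, 1 with only 4 groups, 4 with a minimum log2 difference of 1, 0 without pancreatic and 0 without other-tissue libraries, 363 with clock covariates, 0 with the added setting, and 0 to 799 with 1 library left out. The 0 calls in CAC less NCAC became 175 without pancreatic libraries, 383 with clock covariates, 26 with the added setting, and 0 to 597 with 1 library left out. The comparison with the step before kept 0 in each. List members called numbered 28 with the added setting. CAC less Con gave 325 to 4525 calls at 6 weeks and 667 to 7265 at 8 weeks over the other settings. The clock covariates were centred within groups, so they could alter the spread but not the differences. The cause of these shifts was not tested.

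Same-numbered libraries did not deviate together: 9 of 30 pairs had a correlation over 0.1, in a range of -0.40 to 0.34. With the replicate number as a block, the step had 0 calls, CAC alone 0 and Con alone 8. Of 92 named genes, 53 became called under some setting, 48 of them without CAC 8-week replicate 3, 11 changed sign under some setting, and 22 of the 26 sentinel genes were never called. The 92 include genes named because they were called without that replicate, so for those genes this outcome was fixed by the choice. Depth is unknown, and 5 to 7 animals a group limit the precision.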
